A study of Mus musculus with 6 samples.

Results

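The genes that make, break down and read out cyclic AMP were examined in lung epithelial cells in which the transcription factor Nkx2-1 had been reduced. They are the phosphodiesterases (Pde), the adenylyl cyclases (Adcy), the subunits of cAMP-dependent protein kinase (Prkar and Prkac) and the A-kinase anchoring proteins (Akap). Members were chosen by gene symbol among the transcript clusters of the array that carry a single symbol, 1 per gene, which gave 53 of 19938 genes. For genes that the array covers more than once, the brightest transcript cluster was selected on its mean level in all 6 arrays, so that level chose the cluster of Pde4d and of Akap11 and is given as a description. Prkaca and Akap2 share their transcript clusters with other symbols and were not analysed here.

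RNA came from MLE-15 cells, a mouse lung epithelial line grown from the lung tumors of mice that carry the SV40 large T antigen under the human SFTPC promoter. The Nkx2-1-shRNA group was transduced with a mix of 3 shRNA clones against Nkx2-1 in the pLKO.1 lentivirus, and the control group received empty pLKO.1 as the non-silencing control. Both groups carry the T antigen, the lentiviral backbone and the puromycin selection, and the labels of both give 48 h without saying from when it counts. The study's methods describe 3 independently transduced stable lines per group, which the 48 h does not settle. Each array is taken here as 1 line of a single tumor-derived parent, and p-values measure the spread between the arrays, whether these are separate lines or not.

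Cyclic AMP is made from ATP by adenylyl cyclases, most of which are driven by stimulatory G proteins, and is removed by phosphodiesterases that differ in whether they cleave cAMP, cGMP or both. It binds the regulatory subunits of protein kinase A (PKA) and so frees the catalytic subunits, while anchoring proteins hold the kinase and often a phosphodiesterase at one place in the cell. In alveolar epithelium the pathway is known for its part in surfactant secretion and fluid clearance, and PKA can phosphorylate the NKX2-1 protein itself.

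Values are log2 levels from Robust Multi-Array Analysis (RMA), and differences are Nkx2-1-shRNA minus control on that scale. Calls rest on limma with Benjamini-Hochberg adjustment over all 35557 transcript clusters, at an adjusted p under 0.05. A level of 4.35, the 95th percentile of 1248 transcript clusters for chemosensory receptors, served as the background limit. In bulk samples fewer cells of a type and less RNA per cell cannot be told apart, which holds for every difference given here.

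Nkx2-1 itself measured 7.91, 7.98 and 7.83 in the 3 Nkx2-1-shRNA lines, against 8.61, 8.61 and 8.59 in the 3 control lines. The groups did not overlap, and the difference of -0.69 ± 0.076 (SE) left 61.8% of the control level (adjusted p = 0.00155). An exact two-sided permutation test gave p = 0.1, the smallest it allows for 3 against 3. Array medians lay at 5.10 to 5.14 in Nkx2-1-shRNA lines and 5.18 to 5.21 in control lines, and arrays correlated at 0.991 to 0.994 within a group and 0.979 to 0.983 between groups. All 4 epithelial markers looked at stood at 10.6 to 11.5 in Nkx2-1-shRNA lines and 10.2 to 11.1 in control lines. Below background in both groups were 1 of 6 alveolar type II markers, 2 of 4 leukocyte, 2 of 5 fibroblast and 3 of 4 endothelial markers. The surfactant gene Sftpc, which defines type II cells, averaged 4.08 in Nkx2-1-shRNA lines, below background, and 7.73 in control lines. The other type II markers did not move as one, since Sftpa1 and Abca3 were also lower, Sftpd was higher by 0.44, and Sftpb and Lamp3 did not pass. The remaining endothelial marker, Tek, averaged 3.77 in Nkx2-1-shRNA lines and 5.77 in control lines, and its part in the results was not tested.

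Of the 53 members, 7 were higher in Nkx2-1-shRNA lines, 6 were lower and 40 did not pass the test. That is 24.5% called, against 20.5% of all genes. The 13.2% that rose stood beside 10.7% of all genes, and the 11.3% that fell beside 9.88%. In 22 members the lines of the groups did not overlap, a share of 41.5% against 40.2% of all genes. A total of 39 members exceeded the background limit in at least 1 group, and 33.3% of these were called, against 29.2% of the 13568 genes that exceeded it. The median difference of the members was 0.0086, and that of all genes was -0.0070. As a group, then, these genes changed about as often as other genes of the array, and what follows concerns which of them did.

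**Figure D1:**
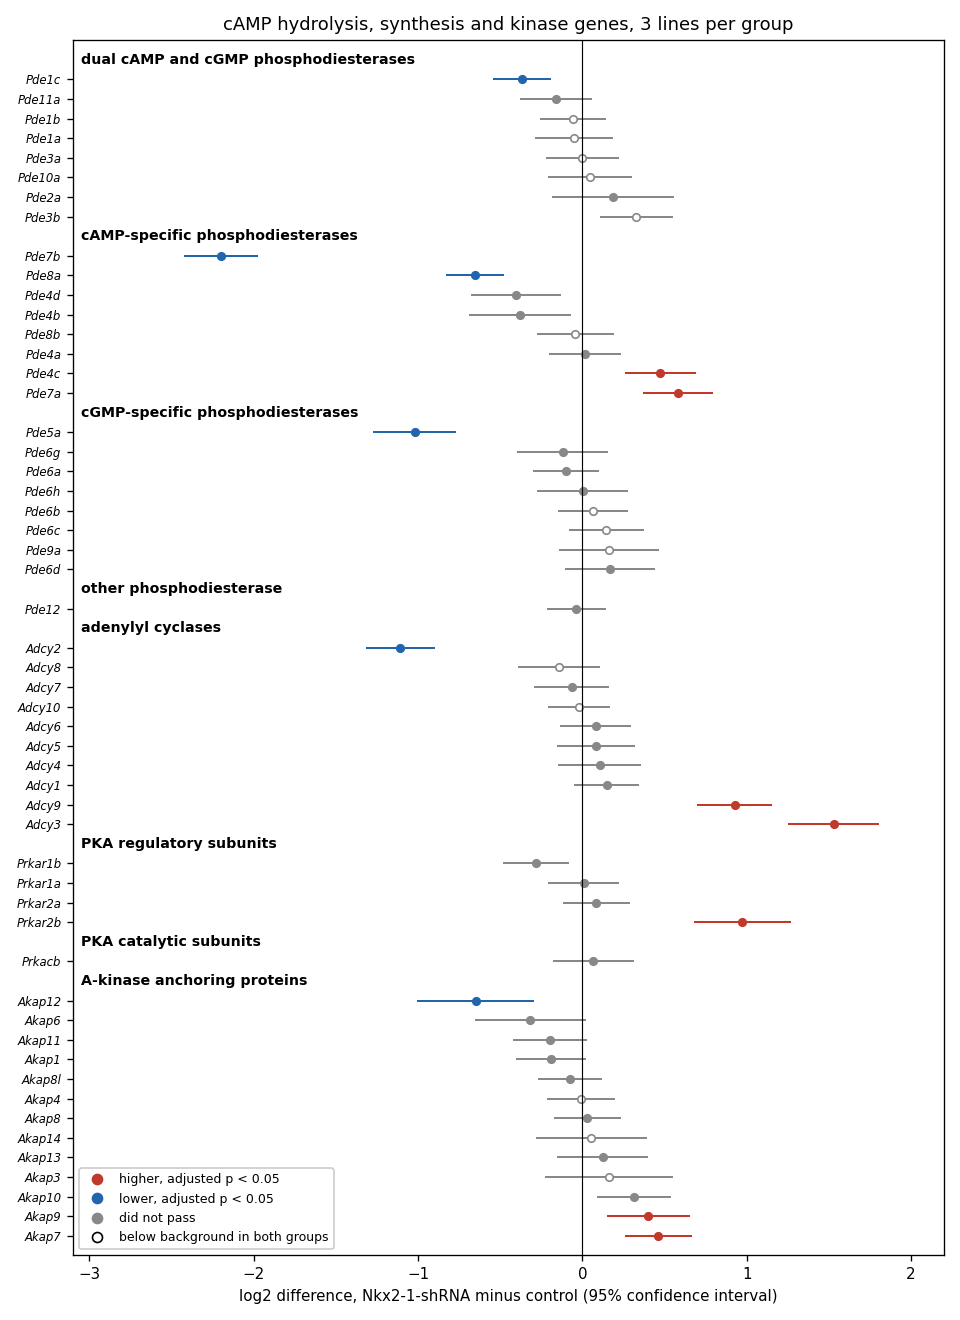
Log2 difference (Nkx2-1-shRNA minus control, horizontal axis) with its 95% confidence interval for each of the 53 members, grouped by role from top to bottom, with open circles for the 14 members below background in both groups. The differences run from -2.20 for Pde7b to 1.53 for Adcy3, and most intervals cross 0.

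Calls went both ways within most classes. Pde7b, Pde8a, Pde5a and Pde1c were the phosphodiesterases that fell, while Pde7a and Pde4c rose. Among the cyclases Adcy2 fell, while Adcy3 and Adcy9 rose. Of the 5 kinase subunits measured the regulatory subunit Prkar2b was the one that passed the test, upward, and of the anchoring proteins Akap12 fell while Akap7 and Akap9 rose. The largest differences in each direction were those of Pde7b and Adcy3, a gene that removes cAMP and a gene that makes it.

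The promoters of these 2 genes are shown because they carry the largest fall and the largest rise, with every CAAG, the core of the sequence that NKX2-1 binds, and its reverse complement CTTG in capitals. They are RefSeq windows of 250 bases before to 50 after each start on build GRCm38.p6. Pde7b has 1 window, chr10:20548279-20548578 on the minus strand, with 2 matches. Adcy3 has 2, chr12:4133147-4133446 with 3 matches and chr12:4133903-4134202 with 4, both on the plus strand.
Pde7b: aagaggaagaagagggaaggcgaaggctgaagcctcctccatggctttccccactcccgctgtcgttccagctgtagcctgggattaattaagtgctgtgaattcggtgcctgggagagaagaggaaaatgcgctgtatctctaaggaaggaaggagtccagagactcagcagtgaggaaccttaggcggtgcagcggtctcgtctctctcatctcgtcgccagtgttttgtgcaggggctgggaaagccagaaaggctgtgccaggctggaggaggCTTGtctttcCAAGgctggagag
Adcy3, upstream start: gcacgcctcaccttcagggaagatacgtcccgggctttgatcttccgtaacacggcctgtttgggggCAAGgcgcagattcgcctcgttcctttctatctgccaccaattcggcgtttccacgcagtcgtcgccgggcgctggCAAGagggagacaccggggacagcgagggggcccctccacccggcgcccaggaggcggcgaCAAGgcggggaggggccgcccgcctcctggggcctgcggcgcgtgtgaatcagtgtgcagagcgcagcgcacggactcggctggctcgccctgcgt
Adcy3, downstream start: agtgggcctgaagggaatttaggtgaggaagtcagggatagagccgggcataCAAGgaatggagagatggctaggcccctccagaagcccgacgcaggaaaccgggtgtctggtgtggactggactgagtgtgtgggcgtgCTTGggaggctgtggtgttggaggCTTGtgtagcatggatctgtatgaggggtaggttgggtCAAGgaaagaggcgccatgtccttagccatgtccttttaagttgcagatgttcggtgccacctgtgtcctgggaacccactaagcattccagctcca

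So short a motif is common. On either strand CAAG was found in 90.6% of 32851 mouse promoters and in 92.9% of the 84 promoters of members, and 43 of the 53 members had a promoter in the table. Among the 11 called members with a promoter it was found in 15 of 16 windows. The matches are a description of the letters, and say nothing of binding.

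Pde7b, a phosphodiesterase that cleaves only cAMP and with high affinity, measured 4.10, 4.23 and 4.11 in Nkx2-1-shRNA lines, against 6.22, 6.45 and 6.37 in control lines. Every Nkx2-1-shRNA line lay below the background limit and every control line about 2 log2 units above it. The fitted difference was -2.20 ± 0.092 (SE, adjusted p = 6.8e-05), or 21.8% of control. Counted from the background limit, Pde7b was at least 4.00-fold lower in Nkx2-1-shRNA lines. Its paralog Pde7a went the other way, with 8.39, 8.38 and 8.42 in Nkx2-1-shRNA lines against 7.95, 7.72 and 7.77 in control lines. The lines did not overlap, and the difference was 0.58 ± 0.086 (SE, adjusted p = 0.0053).

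Pde8a, also a high-affinity cAMP-specific enzyme, measured 5.21, 5.14 and 5.23 in Nkx2-1-shRNA lines, against 5.87, 5.83 and 5.84 in control lines. The groups were apart by more than their spread, with a difference of -0.65 ± 0.072 (SE, adjusted p = 0.00157), which left 63.5% of control. Its paralog Pde8b stayed below background in both groups.

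The Pde4 enzymes are cAMP-specific, are the targets of rolipram and provide much of the cAMP hydrolysis of lung. Pde4c measured 5.01, 5.26 and 5.18 in Nkx2-1-shRNA lines, against 4.68, 4.70 and 4.64 in control lines. It was low but above background in every line, did not overlap, and rose by 0.47 ± 0.089 (SE, adjusted p = 0.0131). That call was lost without the third Nkx2-1-shRNA line (adjusted p = 0.0503) and with the methods' t-test in its form for unequal variances (adjusted p = 0.132). Pde4b measured 5.35, 5.17 and 5.46 in Nkx2-1-shRNA lines, against 5.81, 5.83 and 5.48 in control lines. Although no lines overlapped, the difference of -0.38 ± 0.13 (SE) did not pass (adjusted p = 0.0949). It passed in 3 of 17 alternatives, 1 of them without the third control line (adjusted p = 0.0376). The others kept only transcript clusters above the median level (adjusted p = 0.0453) or with 1 gene symbol (adjusted p = 0.0353). Pde4a measured 4.82, 4.73 and 4.95 in Nkx2-1-shRNA lines, against 4.77, 4.77 and 4.89 in control lines. These overlapped, with a difference of 0.02 and a 95% interval of -0.19 to 0.23 (adjusted p = 0.925).

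Pde4d, a gene with many start sites and both long and short isoforms, had 3 transcript clusters that did not read alike. The brightest, 10407097, was the one selected and measured 7.48, 7.33 and 7.52 in Nkx2-1-shRNA lines, against 8.00, 7.89 and 7.66 in control lines. The groups did not overlap, but the difference of -0.40 ± 0.11 (SE) was near the threshold and did not pass (adjusted p = 0.0523), though it did without the third control line (adjusted p = 0.0263). A dimmer one, 10407122, measured 4.38, 4.64 and 4.96 in Nkx2-1-shRNA lines, against 5.97, 5.68 and 5.96 in control lines. It fell by 1.21 ± 0.16 (SE, adjusted p = 0.00357), to 43.3% of control. The third, 10407124, lay at 4.72, 4.32 and 4.81 in Nkx2-1-shRNA lines, against 4.46, 4.61 and 4.23 in control lines. There the lines overlapped around the background limit (difference 0.18, adjusted p = 0.519). With the mean of the 3 clusters Pde4d passed the test as lower. The selected cluster also passed with the trended and robust prior, array weights, repeated quantile normalization and the filters on transcript clusters. It did not with median centring (adjusted p = 0.105) or the methods' t-test (adjusted p = 0.123). In all, 8 of 17 alternatives changed the call, which depends on the cluster read and on the fit. Which isoforms the clusters measure is not given in the sources used here.

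**Figure D2:**
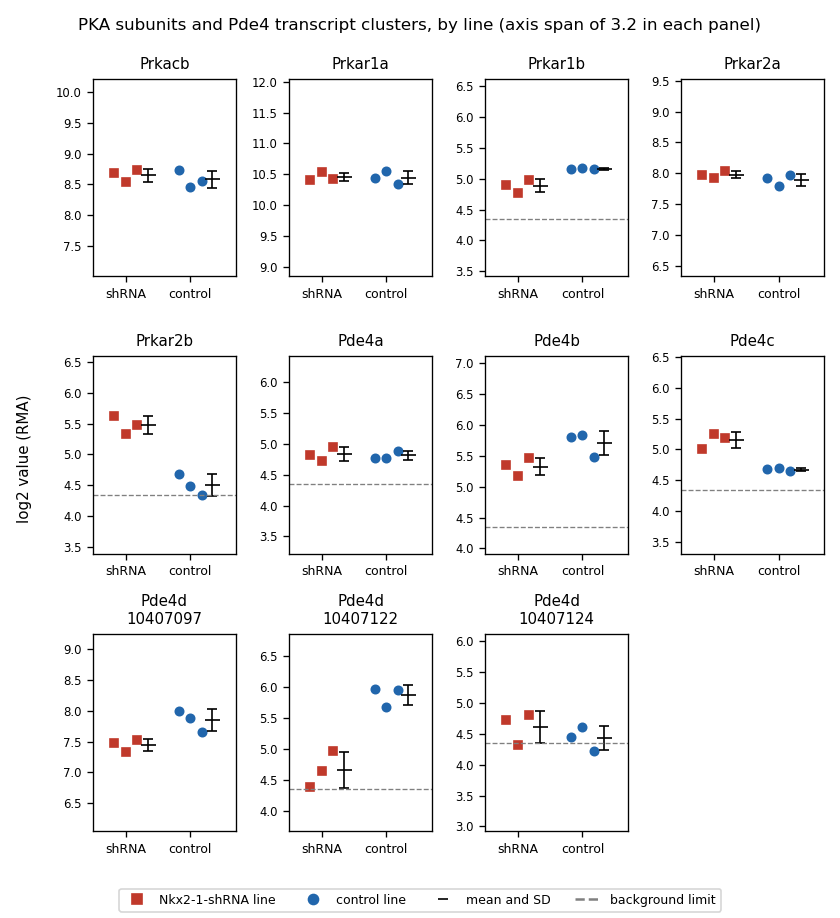
Log2 values (vertical axis) of the PKA subunits, of Pde4a, Pde4b and Pde4c, and of the 3 transcript clusters of Pde4d in each Nkx2-1-shRNA line (squares, left) and control line (circles, right), with mean and SD beside them and the background limit of 4.35 as a dashed line. Among the PKA subunits the groups stand clearly apart for Prkar2b, and among the Pde4d clusters for 10407122.

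Of the 8 genes of the cGMP-specific group 1 passed. Pde5a, which cleaves cGMP and is the target of sildenafil, measured 5.59, 5.52 and 5.53 in Nkx2-1-shRNA lines, against 6.76, 6.45 and 6.49 in control lines. Every Nkx2-1-shRNA line was below every control line, and the difference of -1.02 ± 0.10 (SE, adjusted p = 0.00116) left 49.3% of control. The other 7 genes of the cGMP-specific group did not pass, with differences of -0.12 to 0.17. They were Pde9a, the catalytic Pde6a, Pde6b and Pde6c of photoreceptors, their inhibitory subunits Pde6g and Pde6h, and the widely expressed lipid-binding subunit Pde6d. Of these Pde6b, Pde6c and Pde9a lay below background. Of 6 Pde6 genes none reached an unadjusted p under 0.05 in limma or a call in the methods' t-test.

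Among the 8 enzymes that cleave both nucleotides Pde1c, a calmodulin-stimulated one, was the one called. It averaged 4.90 ± 0.022 in Nkx2-1-shRNA lines and 5.27 ± 0.036 in control lines (SD, n = 3 each), a small and tight difference of -0.37 (adjusted p = 0.0146) that did not pass without the first (adjusted p = 0.0566) or without the third Nkx2-1-shRNA line (adjusted p = 0.0571). Pde2a, stimulated by cGMP, and Pde11a were above background in a group and did not pass. Below background in both groups were Pde1a, Pde1b, Pde3a, Pde3b and Pde10a, which include the cGMP-inhibited pair Pde3a and Pde3b. Pde12, which acts on 2′,5′-linked oligoadenylate rather than on cyclic nucleotides, differed by -0.04 (adjusted p = 0.800).

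Among the 10 adenylyl cyclases 2 rose and 1 fell. Adcy3, the calmodulin-responsive cyclase best known from olfactory neurons and cilia, measured 6.66, 6.97 and 6.71 in Nkx2-1-shRNA lines, against 5.24, 5.38 and 5.13 in control lines. All lines were above background, those of the groups were more than 1 log2 unit apart, and the difference was 1.53 ± 0.11 (SE, adjusted p = 3.7e-04), 289% of control. Adcy9, a widely expressed cyclase that is insensitive to forskolin compared with the others, measured 7.06, 7.04 and 6.96 in Nkx2-1-shRNA lines, against 6.14, 5.94 and 6.20 in control lines. It rose by 0.93 ± 0.094 (SE, adjusted p = 0.00116), to 190.3% of control, with no overlap.

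Adcy2, a cyclase stimulated by G protein βγ and by protein kinase C, measured 3.76, 3.80 and 3.96 in Nkx2-1-shRNA lines, against 5.00, 4.90 and 4.94 in control lines. As with Pde7b, all Nkx2-1-shRNA lines were below the background limit and all control lines above it. The fitted difference was -1.11 ± 0.086 (SE, adjusted p = 4.2e-04), and from the background limit Adcy2 was at least 1.52-fold lower. The other 7 cyclases ranged from -0.14 to 0.15 and did not pass. They were the calcium-inhibited Adcy5 and Adcy6, the calcium-stimulated Adcy1 and Adcy8, Adcy4 and Adcy7 of the same class as Adcy2, and the bicarbonate-sensing soluble cyclase Adcy10. Adcy8 and Adcy10 lay below background in both groups. Adcy6 had a level of 7.29 ± 0.080 in Nkx2-1-shRNA lines and 7.21 ± 0.096 in control lines (SD, n = 3 each).

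**Figure D3:**
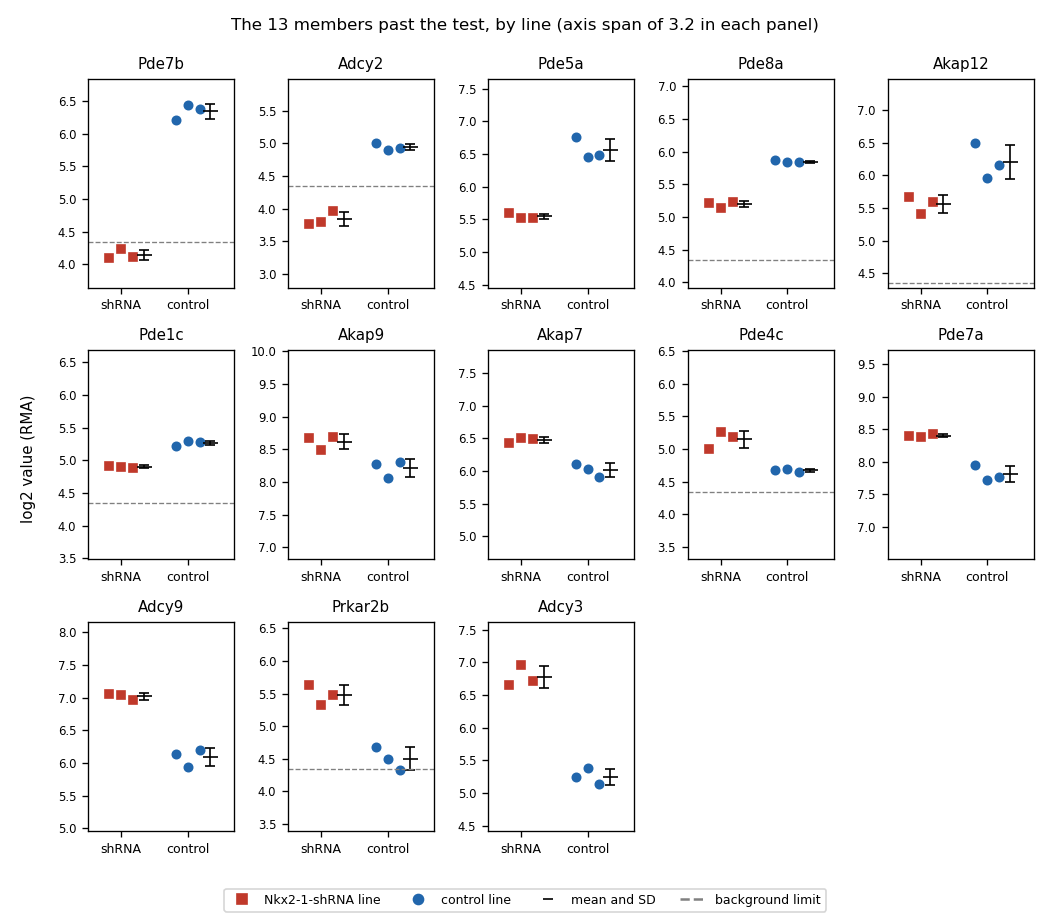
Log2 values (vertical axis, the same span in each panel) of the 13 called members in the 3 Nkx2-1-shRNA lines (squares, left) and the 3 control lines (circles, right), with mean and SD beside them and the background limit of 4.35 dashed where it lies in range. Panels run from the largest fall, Pde7b, to the largest rise, Adcy3; Pde7b and Adcy2 lie under the dashed line in the Nkx2-1-shRNA lines and above it in the control lines.

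Of the 5 measured subunits of the kinase that reads the signal, 1 passed the test. Prkar2b, the type II regulatory subunit RIIβ known from brain and fat, measured 5.62, 5.33 and 5.48 in Nkx2-1-shRNA lines, against 4.68, 4.49 and 4.34 in control lines. The lowest control line was just under the background limit and no line overlapped. The difference was 0.97 ± 0.12 (SE, adjusted p = 0.00263), or 196.5% of control.

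The other regulatory subunits did not pass. Prkar1a (RIα), the widely expressed type I subunit, measured 10.41, 10.53 and 10.43 in Nkx2-1-shRNA lines, against 10.45, 10.56 and 10.34 in control lines. Its lines were interleaved, and the 95% interval of the difference ran from -0.20 to 0.22. Prkar2a (RIIα), the widely expressed type II subunit, measured 7.98, 7.92 and 8.03 in Nkx2-1-shRNA lines, against 7.92, 7.79 and 7.97 in control lines, with an interval of -0.11 to 0.28. Prkar1b (RIβ), known from neurons, measured 4.89, 4.77 and 4.98 in Nkx2-1-shRNA lines, against 5.15, 5.18 and 5.16 in control lines. It did not overlap, and the 95% interval of its difference of -0.28 ran from -0.48 to -0.08. After adjustment the difference did not pass (adjusted p = 0.0632). In 2 of 16 alternatives, both filters on transcript clusters, Prkar1b did pass (adjusted p = 0.0375 and 0.0329). The catalytic subunit Prkacb measured 8.69, 8.53 and 8.73 in Nkx2-1-shRNA lines, against 8.73, 8.46 and 8.56 in control lines, with overlap and an interval of -0.17 to 0.31.

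Prkar1a is also the member with promoter windows that hold the full cAMP response element TGACGTCA, the palindrome that CREB binds. Other windows of Prkar1a, at other starts, do not hold it. A window with the element in capitals is shown, chr11:109650699-109650998 of RefSeq on the plus strand of GRCm38.p6.
Prkar1a: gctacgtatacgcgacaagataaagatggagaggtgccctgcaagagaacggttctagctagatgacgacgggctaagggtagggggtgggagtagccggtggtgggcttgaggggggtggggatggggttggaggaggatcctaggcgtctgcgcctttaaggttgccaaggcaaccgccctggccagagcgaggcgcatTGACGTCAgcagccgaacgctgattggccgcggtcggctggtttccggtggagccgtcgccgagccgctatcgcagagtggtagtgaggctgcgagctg
The element was found in 1.79% of all promoters and in 2 of the 84 promoters of members, both overlapping windows of Prkar1a. It was in 0 of the 16 promoters of called members. The shorter TGACG, which the full element contains, was found on either strand in 20.8% of all promoters and 20.2% of those of members.

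Of 13 anchoring proteins, 3 passed. Akap12 (gravin), a scaffold at the plasma membrane that binds PKA and protein kinase C, measured 5.67, 5.41 and 5.59 in Nkx2-1-shRNA lines, against 6.49, 5.96 and 6.16 in control lines. It did not overlap, but its control lines were spread widely, and the difference was -0.65 ± 0.15 (SE, adjusted p = 0.0265). The call was lost in each fit that left out an Nkx2-1-shRNA line (adjusted p = 0.0577, 0.0877 and 0.0689 without the first, the second and the third) and in the fit without the third control line (adjusted p = 0.0647). Akap7, a small membrane anchor that ties PKA to ion channels, averaged 6.48 ± 0.046 in Nkx2-1-shRNA lines and 6.01 ± 0.10 in control lines (SD, n = 3 each; difference 0.46, adjusted p = 0.0116). Akap9, a Golgi and centrosome scaffold, averaged 8.62 ± 0.11 in Nkx2-1-shRNA lines and 8.21 ± 0.14 in control lines (SD, n = 3 each). Its difference of 0.40 was the weakest of the calls (adjusted p = 0.0419) and was lost without any 1 of the 6 lines (adjusted p = 0.0517 to 0.137).

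The calls of Akap12 and Akap9 were also lost with the methods' t-test (adjusted p = 0.104 for Akap12 and 0.0975 for Akap9) and with its form for unequal variances (adjusted p = 0.176 for Akap12 and 0.129 for Akap9). The remaining 10 anchoring proteins lay between -0.32 and 0.31. Akap1 of mitochondria, Akap6 of the muscle nuclear envelope, Akap8 and Akap8l of the nucleus, the dual-specificity anchor Akap10, Akap11, which also binds GSK-3β, and the large scaffold Akap13 were above background. The 3 transcript clusters of Akap11 read alike, with differences of -0.20, -0.26 and -0.18. The sperm proteins Akap3 and Akap4 and the ciliary Akap14 were below background in both groups.

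Several of the genes that fell are listed by the study as predicted targets of miR-200c, from the targets that TargetScan finds by seed matches. These were Pde7b, Pde5a and Adcy2. Prkar2b, which rose, and Prkar1a, Prkar2a and Prkacb, which did not pass, are predicted targets as well. So 3 of the 7 predicted targets among the members fell, against 12.6% of the 724 predicted target genes matched on the array. Those 724 were not filtered on level, while all 7 members exceeded background in a group. Of the 39 members above background 15.4% fell, and of all genes 9.88%. The mature sequences of miR-200c-3p and of the family members that share its seed are shown because that seed defines the predictions, with bases 2 to 8 in capitals. They are RefSeq sequences on GRCm38.p6.
mmu-miR-200c-3p: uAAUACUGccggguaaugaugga
mmu-miR-200b-3p: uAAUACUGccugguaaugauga
mmu-miR-429-3p: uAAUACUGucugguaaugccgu
The 3 share the seed AAUACUG and differ in the bases after it. The microRNA arrays of the study were not analysed here.

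Position on the chromosome was looked at as well. For each called member the median difference of up to 20 neighbouring genes above background, 10 on each side, was taken in RefSeq order. These medians were at most 0.365 in size and had the sign of the member in 9 of 13 cases. The neighbours of Pde7b had a median of -0.04, those of Adcy2 -0.13, those of Pde5a -0.07, those of Adcy3 0.03 and those of Prkar2b 0.02. Akap7 had the largest, -0.36, with 16 of its 20 neighbours negative while Akap7 rose.

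The wider pathway was described with 9 lists of textbook genes, 125 of whose 141 genes were matched. Of these, 11 were higher, 15 lower and 99 did not pass, or 20.8% called, near the 20.5% of all genes. By list the called shares were 43.8% of cAMP-induced genes, 35.7% of PKA substrate and cAMP transport genes, 33.3% of G protein and 23.1% of CREB family genes. They were 20% of the genes listed as Gi-coupled receptors, the atypical Ackr3 among them, and 10% of Gs-coupled ones. They were 12.5% of cGMP genes and 0% of PKA inhibitors and of other cAMP effectors. The lists hold 9 to 20 genes each, and no set test was run. Gnas, the stimulatory α subunit, was not analysed here. Of the pathway genes named, Gnaz, Gng12, Ackr3, Creb3l1, Crtc2, Npr1, Scnn1a and Abcc4 passed in limma but not in the methods' t-test. Creb1 passed in that test but not in limma.

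Of 12 G protein genes, 4 passed, among them Gnaz, which lay below background in both groups (adjusted p = 0.0497). Gnai1, an inhibitory α subunit that holds cyclases down, measured 6.99, 6.81 and 7.02 in Nkx2-1-shRNA lines, against 8.25, 8.02 and 7.93 in control lines. The lines were about 1 log2 unit apart, a difference of -1.12 ± 0.11 (SE, adjusted p = 0.00106). Gnao1, another inhibitory-class subunit, fell by 0.87 (adjusted p = 5.2e-04), and the γ subunit Gng12 rose by 0.68 (adjusted p = 0.0241). The chemokine receptor Cxcr4, which couples to Gi, measured 6.26, 6.04 and 6.03 in Nkx2-1-shRNA lines, against 7.81, 7.66 and 7.62 in control lines. It had the largest difference in these lists, -1.59 ± 0.10 (SE, adjusted p = 2.0e-04). The lysophosphatidic acid receptor Lpar1 rose by 0.82 (adjusted p = 0.00176). The atypical chemokine receptor Ackr3, whose control mean was below background, was at least 1.23-fold higher counted from the limit (fitted difference 0.45, adjusted p = 0.0227). That made 3 of the 15 genes listed as Gi-coupled receptors called, a list that counts the atypical Ackr3. Beside them stood 2 of 20 Gs-coupled ones. Those 2 were Vipr2, a receptor for vasoactive intestinal peptide, higher by 0.40 (adjusted p = 0.0229), and Tshr, which lay below background in both groups.

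Downstream of PKA the CREB family gave 3 of 13. Creb5 rose by 0.71 (adjusted p = 0.00442), while the membrane-bound Creb3l1 fell by 0.52 (adjusted p = 0.0282) and the coactivator Crtc2 by 0.47 (adjusted p = 0.0196). Creb1 differed by 0.15 (adjusted p = 0.217) and Crem by -0.14 (adjusted p = 0.439). Of 16 genes known to be induced by cAMP, 4 were higher and 3 lower. Fos, an immediate early gene that many signals induce, measured 6.91, 7.03 and 6.89 in Nkx2-1-shRNA lines, against 5.67, 6.04 and 5.78 in control lines. It rose by 1.11 ± 0.11 (SE, adjusted p = 0.00117) with no overlap. Rgs2, which shortens G protein signals, and the nuclear receptor Nr4a3 fell below background in Nkx2-1-shRNA lines, with fitted differences of -0.89 (adjusted p = 0.00508) and -0.84 (adjusted p = 0.00163). From the background limit they were at least 1.49-fold and at least 1.29-fold lower.

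On the cGMP side 2 of 16 genes passed. The natriuretic peptide receptor Npr1, which makes cGMP, fell by 0.65 (adjusted p = 0.0168). The kinase Prkg2, whose control mean was below background, was at least 1.07-fold higher counted from the limit (fitted difference 0.52, adjusted p = 0.00868). Of 14 genes whose products PKA acts on or that move cAMP, 5 passed. The sodium channel subunit Scnn1g fell by 0.93 (adjusted p = 0.00274) while Scnn1a rose by 0.46 (adjusted p = 0.0320). Abcc4, which exports cAMP, fell by 0.55 (adjusted p = 0.0137). Cftr, the chloride channel opened by PKA, lay below background in both groups.

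Neither the 10 cAMP effectors other than PKA nor the 9 PKA inhibitors and phosphatase regulators held a call in limma. At an unadjusted p under 0.05 there were 3 of the effectors and 2 of the inhibitors, and the methods' t-test called 0 and 1 of them. The effectors include the exchange factor Rapgef3 (Epac1), which differed by 0.20 (adjusted p = 0.242).

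**Figure D4:**
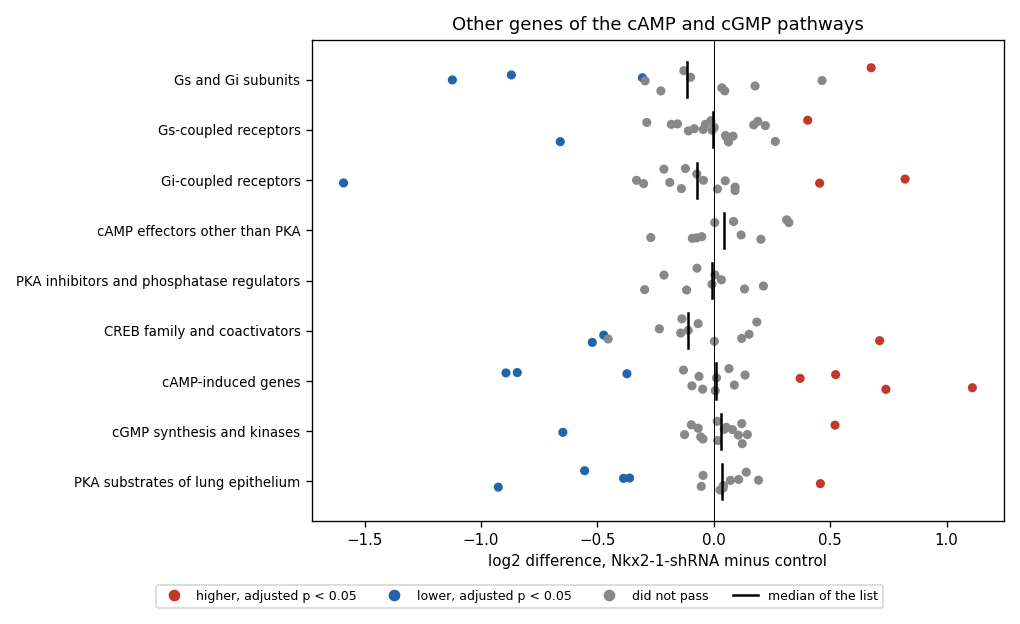
Log2 difference (Nkx2-1-shRNA minus control, horizontal axis) of the 125 matched genes of 9 cAMP and cGMP pathway lists, with a black bar at each list's median and colored points for genes past the test. Points farthest from 0 are Cxcr4 and Gnai1 on the left and Fos on the right, and the list medians lie between -0.11 and 0.04.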

How the data were processed

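RNA of 6 arrays (Affymetrix Mouse Gene 1.0 ST), 3 per group by GEO's labels, was analysed. The authors summarized them by RMA in Affymetrix Expression Console 1.1 (background correction, quantile normalization, probe summary), so the deposited values are log2 levels and were taken unchanged, with 0 columns left out. RMA compresses differences of dim probes, and the array number limits the precision. The genome build of the array annotation is not given in the sources used here. Of 35557 transcript clusters, 21789 carried 1 symbol, 1621 several and 12147 none.

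Differences were fitted with limma 3.58.1 under R 4.3.3 (lmFit, eBayes; 4 residual and 2.86 prior degrees of freedom), tested on simulated data. Confidence intervals are at 95%. Called members with a difference beyond 0.6, the PKA subunits and the Pde4 genes were named in all lines, and up to 3 called genes per pathway list plus Creb1, Crem and Cftr. Pde7a, Pde1c, Akap7, Akap9, Gnaz, Rapgef3, the other Pde4d and Akap11 clusters and the line values of Gnai1, Cxcr4 and Fos were added after their values were seen. A fold from the background limit sets each line below 4.35 to 4.35. The members and lists were chosen with earlier results of these data known. Alternatives were the methods' two-sample t-test and a t-test for unequal variances, other priors, weights, scalings, filters and thresholds, a replicate block and each line left out. Promoter and microRNA sequences are RefSeq's (GRCm38.p6).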

Additional observations from a re-analysis of the deposited data

How the results depend on the processing

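No alternative turned the direction of a called member. Of the 13 calls, 5 were kept at an adjusted p under 0.05 in every alternative fit that tested the gene (Pde7b, Adcy2, Adcy3, Pde8a, Prkar2b). At that limit 4 (Adcy9, Akap7, Pde5a, Pde7a) were lost only with the t-test for unequal variances. The filter at the median level did not test Adcy2 or Prkar2b. Akap9 and Akap12 had adjusted p of 0.0127 to 0.137 and 0.00416 to 0.176 over the alternatives, and Pde4d, not called, 0.0163 to 0.188. The unequal-variance t-test called 2 members higher, and of the pathway genes 1 higher and 4 lower; it gave Nkx2-1 the same -0.69 with an adjusted p of 0.0550. Applied to the limma fit, the study's stricter threshold (adjusted p under 5e-04, difference beyond 0.6) left 1 member higher (Adcy3) and 2 lower (Pde7b and Adcy2). Of the pathway genes it left 0 higher and 1 lower in that fit. With the methods' t-test these members had adjusted p of 0.00899 (Adcy3), 0.00389 (Pde7b) and 0.00638 (Adcy2), above that threshold. At an adjusted p under 0.05 the methods' t-test called 9 pathway genes lower. Leaving out 1 line gave 6 members higher in each case and 4 to 7 lower (4 without the first or the third Nkx2-1-shRNA line), and 5 to 8 pathway genes higher and 8 to 12 lower (5 higher and 8 lower without the second Nkx2-1-shRNA line, 6 and 8 without the first, 7 and 11 without the third; 8 and 9 without the first or the third control line, 6 and 12 without the second). Among the called genes of the whole array 51.9% were higher, and 65.1% with each array centred on its median, which gave 9 members higher and 6 lower. Replicate numbers are shared by the groups but did not pair the lines (correlations of same-numbered deviations 0.058, 0.136 and -0.034). With the replicate block 7 members were higher and 6 lower, and 8 and 11 pathway genes; for Nkx2-1 it gave -0.69 (adjusted p = 0.0113). The background limit at the 90th percentile, 3.97, put 43 members above it.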
